A study of Canis lupus familiaris with 36 samples.

Results

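Canine oral squamous cell carcinomas (OSCC) with much and with little T cell transcript were compared across a panel of immune genes. The T cell-rich tumors were the 17 of 34 tumors with the highest log2 signal of CD3e, and the T cell-poor tumors were the 17 with the lowest. CD3e encodes a chain of the CD3 complex that every mature T cell carries on its surface with the T cell receptor. The remaining 2 of the 36 samples were normal oral mucosa, labelled mucosal stroma, and are given as background. All samples were archived dog tissue. The labels say nothing about treatment and separate the samples only as tumor or mucosal stroma. Age, breed, preservation and tumor site are not tied to single samples in the labels. The extraction protocol names frozen and formalin-fixed tissue and also frozen lymph node tumor tissue, without saying which samples these were. The 36 samples came from 33 dogs, fewer than the 34 tumors. Some tumors therefore shared a dog although each sample has its own patient number, and the labels do not say which.

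T cells recognize antigen through the T cell receptor and need a second signal from costimulatory receptors such as CD28, ICOS and CD27 to be fully activated. Activated T cells also express inhibitory receptors such as PD-1, CTLA4 and LAG3, which restrain them when bound by ligands on tumor or myeloid cells. CD8 T cells kill target cells with perforin and granzymes, whereas regulatory T cells, which depend on the transcription factor FOXP3, suppress other immune cells. Oral squamous cell carcinoma arises from the lining epithelium of the mouth and can hold all of these cells in varying amounts.

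Expression was measured with a NanoString panel, which counts color-coded probes bound to RNA, and each value below is the log2 of the deposited housekeeping-normalized signal unless another scale is named. Differences are mean log2 signal in T cell-rich minus T cell-poor tumors, with their standard error (SE). Total counts over the 48 panel genes were 27092 to 400242 in T cell-rich tumors and 88279 to 665587 in T cell-poor tumors, with 3 T cell-rich tumors and 1 T cell-poor tumor under 100000. None of 8 technical measures passed adjustment (permutation test, two-sided). The lowest p was that of the housekeeping gene SDHA, which differed by -0.29 (permutation p = 0.0181, adjusted p = 0.145). By the relative signal of their positive controls the samples fell into sets, called batches here, although the labels name no run or date. The names first and later follow the order of the patient numbers. The first batch held 1 T cell-rich tumor, 6 T cell-poor tumors and both mucosa samples. The later batch held 16 T cell-rich and 11 T cell-poor tumors (Fisher's exact test for batch and group, two-sided, p = 0.0854). The tumors of patients 33 and 34 were closer to each other than any of the other tumor pairs, with a mean absolute log2 difference of 0.19 over the genes against 0.52 for the next closest of 561 pairs. Both belonged to the T cell-rich group, and for several results the values without them or with batch as a term are also given.

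CD3e chose the groups, and its values are given as a description with no test. It ranged from 10.32 to 14.19 in T cell-rich tumors, with a median of 10.80, and from 8.08 to 10.29 in T cell-poor tumors, with a median of 9.16. The mucosa samples lay at 8.98 and 6.85, and 10 of the 17 T cell-poor tumors exceeded both. The boundary fell in a dense stretch of values. The last tumor inside the T cell-poor group, of patient 10, had 10.29 and the first inside the T cell-rich group, of patient 11, had 10.32, and 8 tumors lay within 0.2 of the boundary. The top was sparse, with patients 33 and 34 at 13.89 and 14.19 and the next tumor, of patient 26, at 12.17. In bulk tissue, a larger number of T cells and more CD3e RNA in each T cell cannot be told apart.

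**Figure D1:**
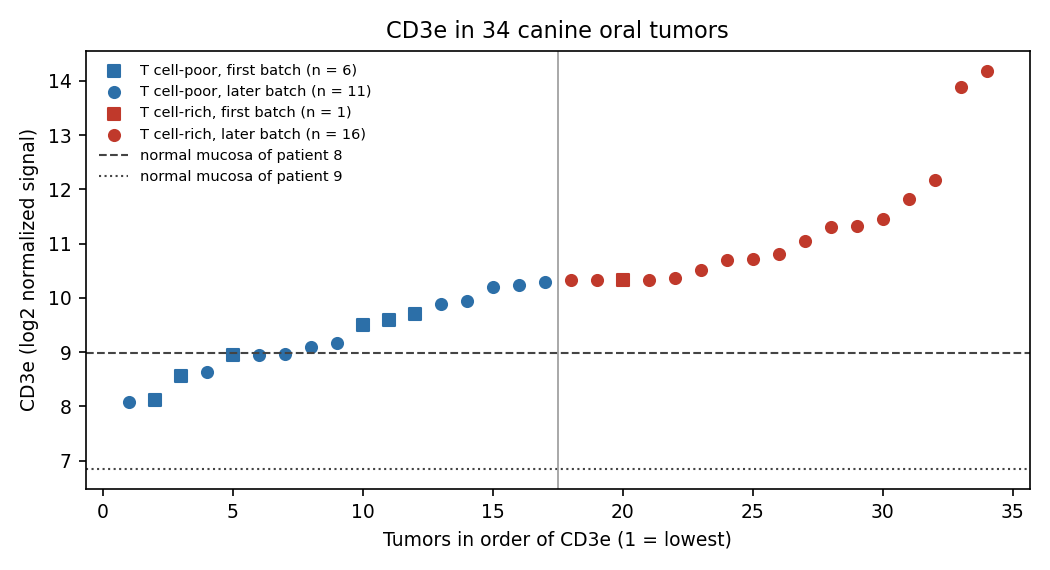
CD3e, as log2 normalized signal, of each of the 34 tumors in order from lowest to highest, with batch shown by the symbol and the mucosa samples as horizontal lines. The T cell-poor group ends at 10.29 and the T cell-rich group starts at 10.32, with no gap between them, and the highest 2 tumors stand at 13.89 and 14.19.

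Of the 43 immune genes other than CD3e, 19 were higher in T cell-rich tumors and 0 were lower (limma, Benjamini-Hochberg adjusted p under 0.05), which is 44.2% of the genes tested, and 22 genes had an unadjusted p under 0.05. The difference exceeded 1 on the log2 scale for 14 of the 19 genes. It was positive for 38 of 43 genes and negative for 5, with a median of 0.71. The ranges of the groups overlapped in every gene. Costimulatory and inhibitory receptors, cytolytic effectors and T cell lineage factors held most of the called genes, whereas 1 of 9 cytokines and 0 of 4 chemokine and adhesion genes were called. A gene and CD3e were measured in the same RNA and scaled by the same factor of the sample.

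**Figure D2:**
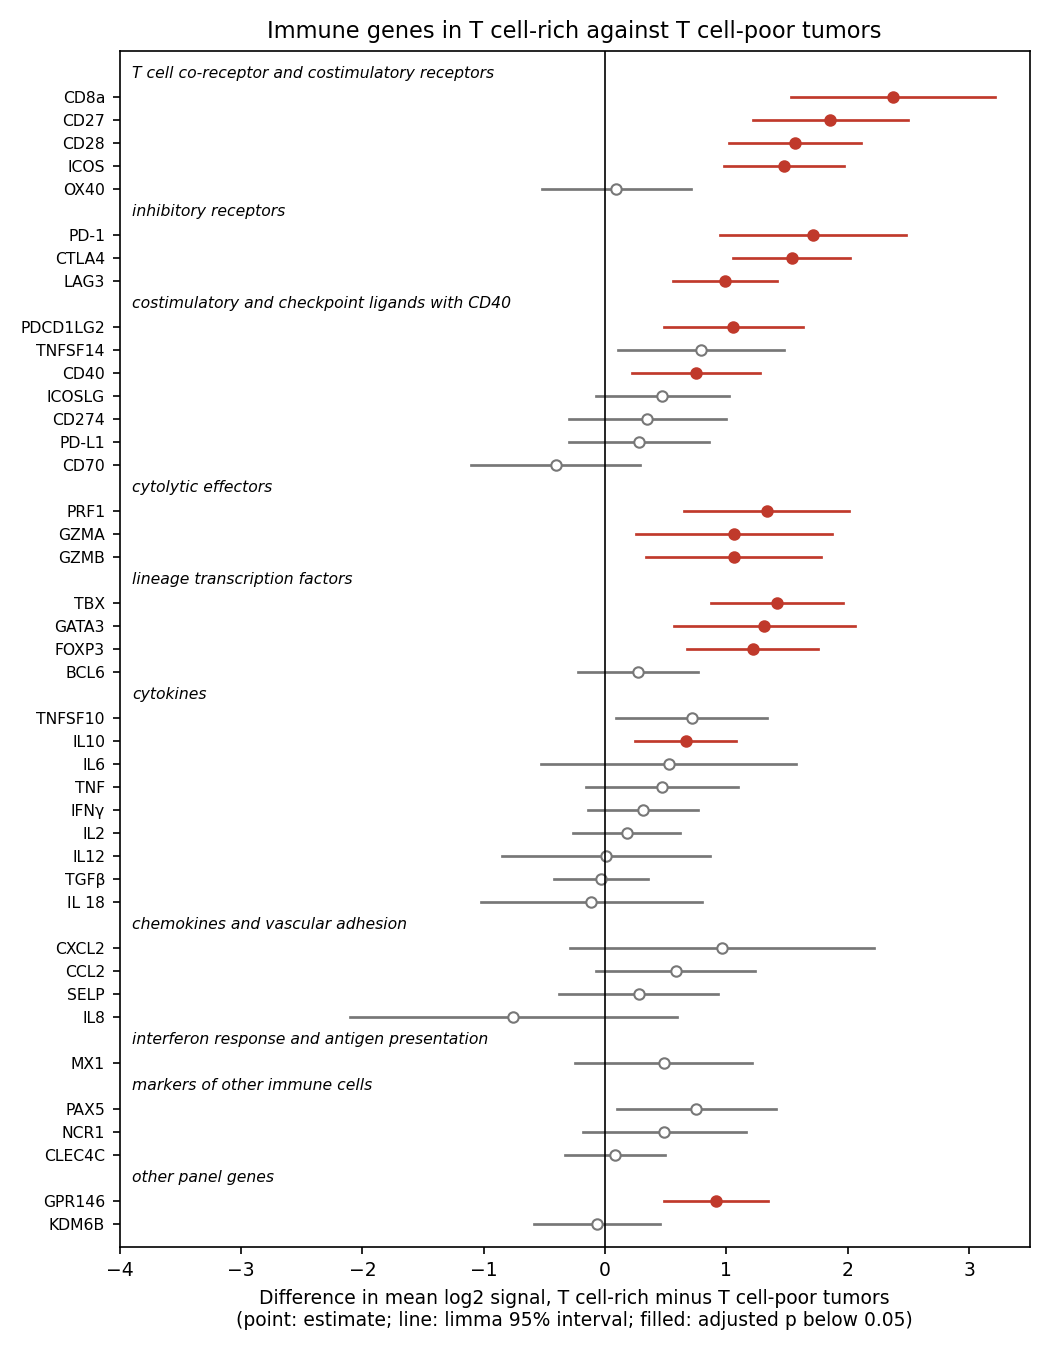
Difference in mean log2 signal between 17 T cell-rich and 17 T cell-poor tumors for 41 of the 43 genes, grouped by role, with points for the estimate and lines for the limma 95% interval. Filled points mark an adjusted p under 0.05, and all filled points lie to the right of 0, led by CD8a at 2.37.

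Among the co-receptor and costimulatory receptors, 4 of 5 genes were higher in T cell-rich tumors, with a list median difference of 1.57 against 0.71 over all 43 genes. CD8a, the co-receptor of cytotoxic T cells, showed the highest difference of the 43 genes. CD8a was 8.08 to 13.48 in T cell-rich tumors with a median of 10.54, and 6.54 to 10.25 in T cell-poor tumors with a median of 8.34. The groups overlapped, with 10 of 17 T cell-rich tumors above the highest T cell-poor tumor. The mean was 10.55 ± 1.47 against 8.17 ± 1.04 (SD, n = 17 each), a difference of 2.37 (SE 0.42, limma adjusted p = 1.26e-05) or 5.18-fold. The mucosa samples were at 7.41 and 7.04, lower than every T cell-rich tumor and than 12 T cell-poor tumors.

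CD27, a costimulatory receptor of the tumor necrosis factor receptor family, ranged from 7.38 to 11.29 (median 8.49) in T cell-rich tumors and from 5.17 to 7.78 (median 7.12) in T cell-poor tumors. Separation was close to complete, since 15 of 17 T cell-rich tumors exceeded the highest T cell-poor tumor. The difference was 1.86 (SE 0.32, limma adjusted p = 9.8e-06). Its ligand CD70 went the other way in sign, at 8.18 ± 0.96 in T cell-rich and 8.59 ± 1.10 in T cell-poor tumors (SD, n = 17 each), and the difference of -0.41 did not pass the test (SE 0.34, limma adjusted p = 0.35). All 34 tumors had more CD70 signal than both mucosa samples, which were at 4.66 and 4.91.

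CD28, the receptor that gives the main costimulatory signal to naive T cells, ranged from 7.29 to 9.91 (median 8.51) in T cell-rich and from 5.74 to 8.25 (median 6.91) in T cell-poor tumors. The difference was 1.57 (SE 0.27, limma adjusted p = 9.8e-06), and 10 of 17 T cell-rich tumors exceeded all T cell-poor tumors. Only 4 T cell-poor tumors were above both mucosa samples in CD28. ICOS, an inducible relative of CD28, ranged from 9.45 to 11.35 (median 10.53) against 7.26 to 10.36 (median 8.73). The ICOS difference was 1.47 (SE 0.24, limma adjusted p = 9.45e-06). OX40, a costimulatory receptor of activated T cells, stood apart from these, with medians of 7.28 and 7.15 and a difference of 0.09 (SE 0.30, limma adjusted p = 0.838, 95% interval -0.52 to 0.71). The highest OX40 signal of all tumors, 10.59, was in the T cell-poor tumor of patient 3, and every tumor of both groups exceeded the mucosa samples at 5.31 and 4.69.

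All 3 inhibitory receptors were higher in T cell-rich tumors, with a list median difference of 1.54. CTLA4, which competes with CD28 for its ligands, ranged from 8.20 to 9.94 (median 9.17) in T cell-rich and from 6.13 to 8.47 (median 7.57) in T cell-poor tumors. It had the cleanest separation, with 16 of 17 T cell-rich tumors above every T cell-poor tumor, and the lowest adjusted p of the 43 genes. The difference was 1.54 (SE 0.24, limma adjusted p = 5.74e-06). PD-1, the receptor blocked by a widely used class of cancer immunotherapy, ranged from 6.22 to 10.87 (median 8.12) against 5.12 to 9.70 (median 6.19). Its difference was 1.72 (SE 0.38, limma adjusted p = 0.000238), yet 2 T cell-rich tumors exceeded the highest T cell-poor tumor, that of patient 19. LAG3, which binds MHC class II, ranged from 8.33 to 10.17 (median 9.17) against 6.93 to 9.61 (median 8.19), and its difference was 0.99 (SE 0.21, limma adjusted p = 0.000187). In PD-1 and LAG3 all 34 tumors exceeded both mucosa samples, whose PD-1 signal, 3.44 and 3.57, was not above their negative-control background.

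**Figure D3:**
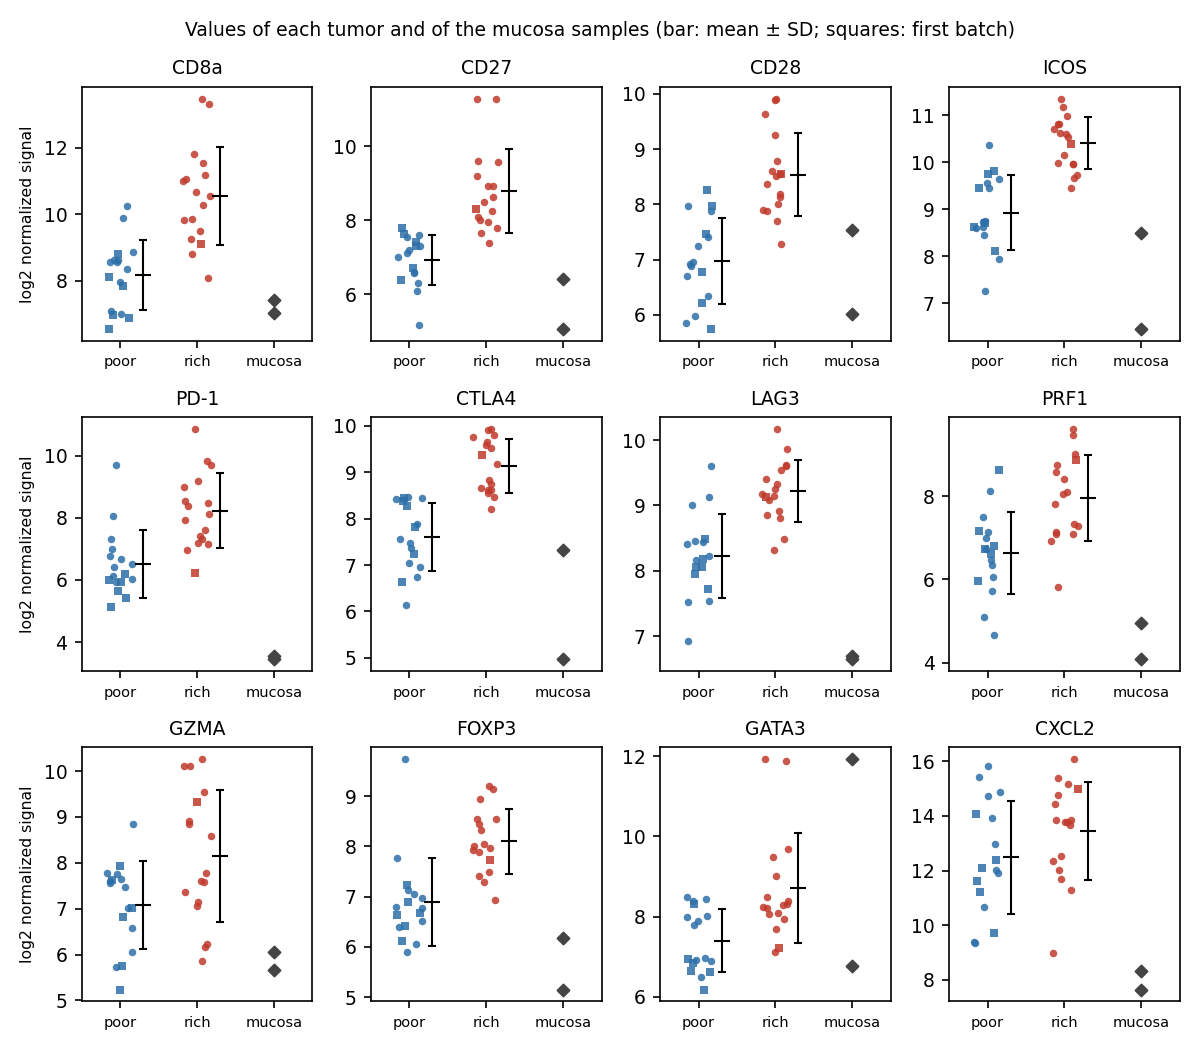
Log2 normalized signal of 12 genes in each T cell-poor tumor, T cell-rich tumor and mucosa sample, with bars for the mean and SD of the 17 tumors of a group and squares for the first batch. CTLA4 and CD27 separate the groups almost fully, GZMA and CXCL2 overlap over most of their range, and GATA3 has 2 T cell-rich tumors and a mucosa sample near 11.9.

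Among the ligands and CD40, 2 of 7 genes were higher in T cell-rich tumors, with a list median difference of 0.47. PDCD1LG2, a second ligand of PD-1, ranged from 8.15 to 10.37 (median 9.09) in T cell-rich and from 6.95 to 10.22 (median 8.07) in T cell-poor tumors, a difference of 1.06 (SE 0.28, limma adjusted p = 0.00203). The other PD-1 ligand was measured by 2 panel entries, PD-L1 and CD274, which are names of the same gene. Neither passed the test, with differences of 0.28 (SE 0.29, limma adjusted p = 0.414) and 0.35 (SE 0.32, limma adjusted p = 0.37). Their medians were 7.26 against 7.19 for PD-L1 and 9.70 against 9.45 for CD274, and the highest T cell-poor tumor in both was that of patient 20. CD40, a receptor of antigen-presenting cells that T cells engage, ranged from 8.43 to 10.90 (median 9.81) against 7.67 to 10.77 (median 9.01). The CD40 difference was 0.75 (SE 0.26, limma adjusted p = 0.0167), and it was not called when batch entered the model (0.57, limma adjusted p = 0.0946) nor without patients 33 and 34 (0.61, limma adjusted p = 0.0561). ICOSLG, the ligand of ICOS, differed by 0.47 (limma adjusted p = 0.161) and TNFSF14, a costimulatory ligand also called LIGHT, by 0.79 (limma adjusted p = 0.0507). Without patients 33 and 34 the TNFSF14 difference was 0.39 (limma adjusted p = 0.203).

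The cytolytic effectors were all higher in T cell-rich tumors, 3 of 3, with a list median difference of 1.06. PRF1, the pore-forming protein perforin, ranged from 5.83 to 9.62 (median 8.04) in T cell-rich and from 4.65 to 8.64 (median 6.73) in T cell-poor tumors. The PRF1 difference was 1.33 (SE 0.34, limma adjusted p = 0.00118), and 5 of 17 T cell-rich tumors exceeded every T cell-poor tumor. GZMB, granzyme B, ranged from 7.48 to 11.24 (median 9.45) against 5.89 to 9.99 (median 8.56), with a difference of 1.06 (SE 0.36, limma adjusted p = 0.0133). GZMA, granzyme A, ranged from 5.86 to 10.27 (median 7.79) against 5.24 to 8.85 (median 7.47). The GZMA medians lay closer together than the means, which differed by 1.06 (SE 0.40, limma adjusted p = 0.0256). GZMA lost its call with batch as a term (1.01, limma adjusted p = 0.0615), in the later batch (0.80, limma adjusted p = 0.187) and without patients 33 and 34 (0.79, limma adjusted p = 0.102).

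The cytolytic score, the mean log2 signal of PRF1 and GZMA, ranged from 5.84 to 9.94 (median 7.91) in T cell-rich and from 5.40 to 7.99 (median 6.95) in T cell-poor tumors. The mucosa samples scored 4.87 and 5.51. The mean score was 8.05 ± 1.17 against 6.86 ± 0.76 (SD, n = 17 each), a difference of 1.20 (permutation test, two-sided, p = 0.00145), and 14 of 17 T cell-rich tumors exceeded the T cell-poor median. The difference was 1.13 in the later batch (permutation p = 0.012) and 0.96 without patients 33 and 34 (permutation p = 0.00544).

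Of the 5 lineage transcription factors, 4 were higher in T cell-rich tumors, with a list median difference of 1.22. TBX, entered in the panel without a member number and placed here with the T-box factor of type 1 helper and cytotoxic T cells, ranged from 6.09 to 8.81 (median 6.89) in T cell-rich and from 4.24 to 7.09 (median 5.90) in T cell-poor tumors. The TBX difference was 1.41 (SE 0.27, limma adjusted p = 4.24e-05), and 13 of 17 T cell-poor tumors lay below the lowest T cell-rich tumor. FOXP3, the factor of regulatory T cells, ranged from 6.92 to 9.20 (median 8.01) against 5.89 to 9.74 (median 6.77), with a difference of 1.22 (SE 0.27, limma adjusted p = 0.000238). No T cell-rich tumor exceeded the highest FOXP3 signal among T cell-poor tumors, which was again that of patient 19, although 15 of the 17 tumors with the most FOXP3 were T cell-rich. GATA3, a factor of type 2 helper T cells that squamous epithelium also expresses, ranged from 7.12 to 11.94 (median 8.29) against 6.18 to 8.48 (median 6.98). The GATA3 difference was 1.31 (SE 0.37, limma adjusted p = 0.00318), and 0.89 without patients 33 and 34 (limma adjusted p = 0.00689), which were at 11.88 and 11.94. A mucosa sample reached 11.93 and the other 6.76. BCL6, a factor of follicular helper T cells and germinal-center B cells, differed by 0.27 (limma adjusted p = 0.367). Its medians, 11.31 in T cell-rich and 10.87 in T cell-poor tumors, were both below the mucosa samples at 11.76 and 12.03. In each group 1 tumor exceeded both mucosa samples.

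Most cytokines and chemokines did not pass the test. IL10, an anti-inflammatory cytokine, was the only one of 9 cytokines called. It ranged from 8.01 to 9.67 (median 8.75) in T cell-rich and from 7.28 to 9.55 (median 7.86) in T cell-poor tumors, a difference of 0.66 (SE 0.21, limma adjusted p = 0.0074). IFNγ, the signature cytokine of type 1 helper and cytotoxic T cells, had medians of 6.84 and 6.63 and a difference of 0.31 (SE 0.22, limma adjusted p = 0.269). Its 95% interval, -0.14 to 0.76, reached below 0. IL2, the T cell growth factor, had medians of 5.74 and 5.85 and a difference of 0.18 (SE 0.22, limma adjusted p = 0.486). The 3 T cell-rich tumors above every T cell-poor tumor in IL2, of patients 21, 36 and 26, were those with under 100000 total counts. They also had the highest IFNγ signals. TNFSF10, a ligand that triggers death receptors, differed by 0.71 (SE 0.31, limma adjusted p = 0.0507) and passed with batch as a term (0.94, limma adjusted p = 0.0156). IL6 differed by 0.52 (limma adjusted p = 0.403), TNF by 0.47 (limma adjusted p = 0.231), IL12 by 0.01 (limma adjusted p = 0.984) and IL 18 by -0.11 (limma adjusted p = 0.842). TGFβ differed by -0.03 (limma adjusted p = 0.885), and its values lay closer together in T cell-rich tumors (11.56 ± 0.23) than in T cell-poor tumors (11.60 ± 0.65, SD, n = 17 each). The lowest T cell-poor value, 9.73, was that of patient 19, and the next lowest, 11.05, that of patient 30. The difference in spread was not tested.

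The neutrophil-attracting chemokines spread widely inside both groups. CXCL2 ranged from 8.98 to 16.09 (median 13.78) in T cell-rich and from 9.33 to 15.84 (median 12.10) in T cell-poor tumors, and its difference of 0.96 had an SE of 0.62 (limma adjusted p = 0.219). IL8 ranged from 10.85 to 16.94 (median 14.22) against 10.37 to 18.60 (median 14.81). Its difference of -0.76, the lowest of the 43 genes, did not pass the test (SE 0.67, limma adjusted p = 0.366), and its sign depended on batch, at -0.30 with batch as a term (limma adjusted p = 0.723) and 0.15 in the later batch (limma adjusted p = 0.836). CCL2, which attracts monocytes, differed by 0.58 (limma adjusted p = 0.152), and SELP, an adhesion molecule of platelets and vessel walls, by 0.28 (limma adjusted p = 0.474). A fit on CD3e as a continuous measure, in place of the groups, called 28 genes (65.1% of those tested), 27 with a positive slope on CD3e (62.8%) and 1 with a negative slope (2.33%), and included all 19. In that fit CXCL2 rose by 0.62 per log2 unit of CD3e (limma adjusted p = 0.0101), and IL8, the gene with a negative slope among those called, had a slope of -0.55 (limma adjusted p = 0.0366). CCL2 rose by 0.37 (limma adjusted p = 0.00229) and TNFSF10 by 0.35 (limma adjusted p = 0.0028). Without patients 33 and 34 the fit called 21 genes, all rising (48.8%), 18 of them among the 19. CXCL2 was still called, with a slope of 0.98 (limma adjusted p = 0.00362), whereas IL8 was not, with -0.47 (limma adjusted p = 0.227). CCL2 and TNFSF10 were also still called, with slopes of 0.55 (limma adjusted p = 0.00144) and 0.46 (limma adjusted p = 0.0068).

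Of the markers of other immune cells, 0 of 3 passed the test, with a list median difference of 0.49. PAX5, a B cell factor, differed by 0.75 (SE 0.32, limma adjusted p = 0.0507), at 3.52 to 7.46 (median 4.91) against 3.27 to 5.27 (median 4.56), and was above the negative-control background of the sample in 15 T cell-rich and 12 T cell-poor tumors. Without patients 33 and 34 the PAX5 difference was 0.53 (limma adjusted p = 0.185). NCR1, a natural killer cell receptor, differed by 0.49 (SE 0.33, limma adjusted p = 0.24) and was above background in 12 tumors of each group. CLEC4C, a marker of plasmacytoid dendritic cells, differed by 0.08 (SE 0.20, limma adjusted p = 0.78). The mucosa samples were at 8.55 and 8.52, above all T cell-poor tumors. They were also above every T cell-rich tumor (8.48 at most) except those of patients 33 and 34, at 9.00 and 9.19. None of these markers was at 0 in any tumor, and their part in the results of other genes was not tested. MX1, an interferon-induced antiviral protein, differed by 0.48 (limma adjusted p = 0.28), and by 0.19 without patients 33 and 34 (limma adjusted p = 0.624). GPR146, a G protein-coupled receptor, was higher by 0.92 (SE 0.21, limma adjusted p = 0.00042), whereas KDM6B, a histone demethylase, differed by -0.06 (limma adjusted p = 0.842).

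Balances between genes within a tumor leave out the scale of the sample and hold no CD3e value, although the groups compared were drawn by CD3e. CD8a minus FOXP3 was 2.44 ± 1.29 in T cell-rich and 1.28 ± 1.24 in T cell-poor tumors (SD, n = 17 each), a difference of 1.15 (permutation test, two-sided, adjusted over 4 balances, p = 0.0251). It was 0.99 in the later batch (permutation adjusted p = 0.0959) and 0.92 without patients 33 and 34 (permutation adjusted p = 0.0831), so this call did not hold in either. The mean of GZMA, GZMB and PRF1 minus CD8a was lower in T cell-rich tumors, at -2.05 ± 0.997 against -0.83 ± 1.09 (SD, n = 17 each). The difference was -1.22 (permutation adjusted p = 0.00816), and 1 of 17 T cell-rich tumors exceeded the T cell-poor median. It was -1.01 in the later batch (permutation adjusted p = 0.0306) and -1.05 without patients 33 and 34 (permutation adjusted p = 0.0292). The inhibitory receptors relative to CD27, CD28 and ICOS differed by -0.22 (permutation adjusted p = 0.359) and TBX relative to GATA3 by 0.10 (permutation adjusted p = 0.756).

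**Figure D4:**
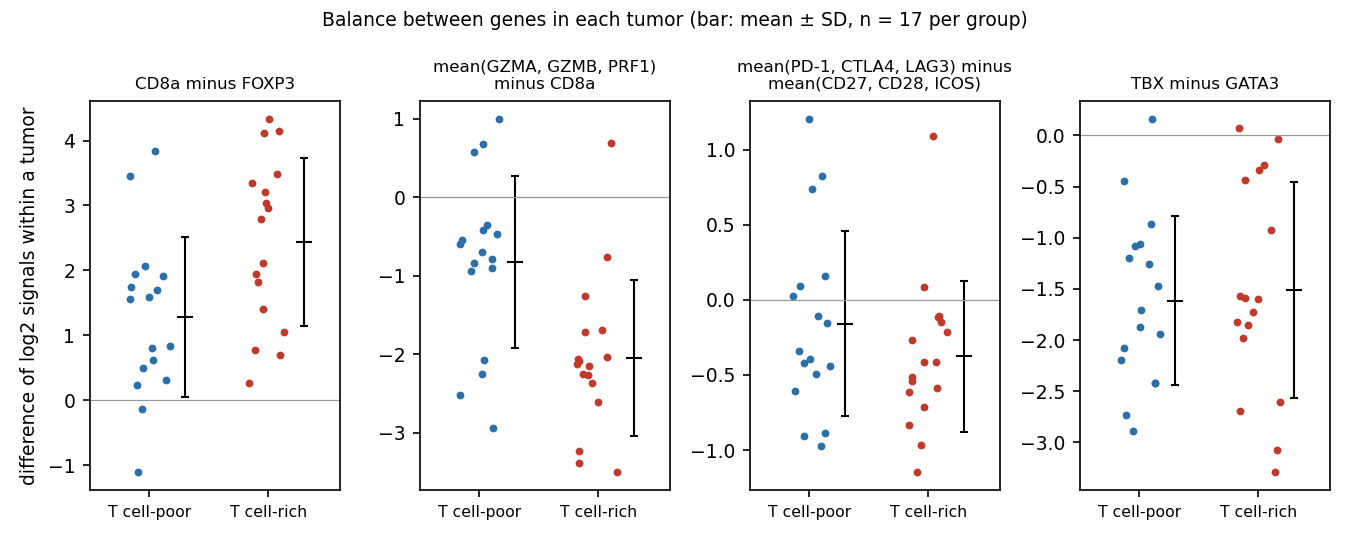
Difference between log2 signals of genes within each tumor, in 17 T cell-poor and 17 T cell-rich tumors, with bars for the mean and SD. CD8a minus FOXP3 is 1.15 higher in T cell-rich tumors, the cytolytic genes relative to CD8a are 1.22 lower, and the other balances overlap over nearly their whole range.

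The median level over the immune genes of a tumor, the called genes included, also differed between the groups, and this was not tested. The median of a tumor's 43 log2 values was 8.87 ± 0.50 in T cell-rich and 7.93 ± 0.36 in T cell-poor tumors (SD, n = 17 each), a difference of 0.94, and was 7.31 and 7.29 in the mucosa samples. Relative to that shift, with every tumor set to the same median, 11 genes were called (25.6%), 5 higher (11.6%) and 6 lower (14.0%) in T cell-rich tumors, beside 19 higher and 0 lower on the housekeeping scale. The 5 higher genes were CD8a (1.44), CD27 (0.92), CD28 (0.63), CTLA4 (0.60) and ICOS (0.54). Neither PD-1 (0.78, limma adjusted p = 0.0644) nor LAG3 (0.05, limma adjusted p = 0.836) was called on this scale. The 6 lower genes were CD70 (-1.34), KDM6B (-1.0002), TGFβ (-0.97), CLEC4C (-0.85), IL2 (-0.76) and IFNγ (-0.63). In the same order they differed by -0.41, -0.06, -0.03, 0.08, 0.18 and 0.31 on the housekeeping scale, with no call. Setting equal medians lowered the difference of every gene by the same 0.94. The cytolytic score then differed by 0.26 (permutation p = 0.318). CD40, IL10 and GPR146 differed on this scale by -0.19, -0.27 and -0.02, so the direction of these 3 genes depended on the scaling. The same held for CLEC4C, IL2 and IFNγ among the 6 lower genes.

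**Figure D5:**
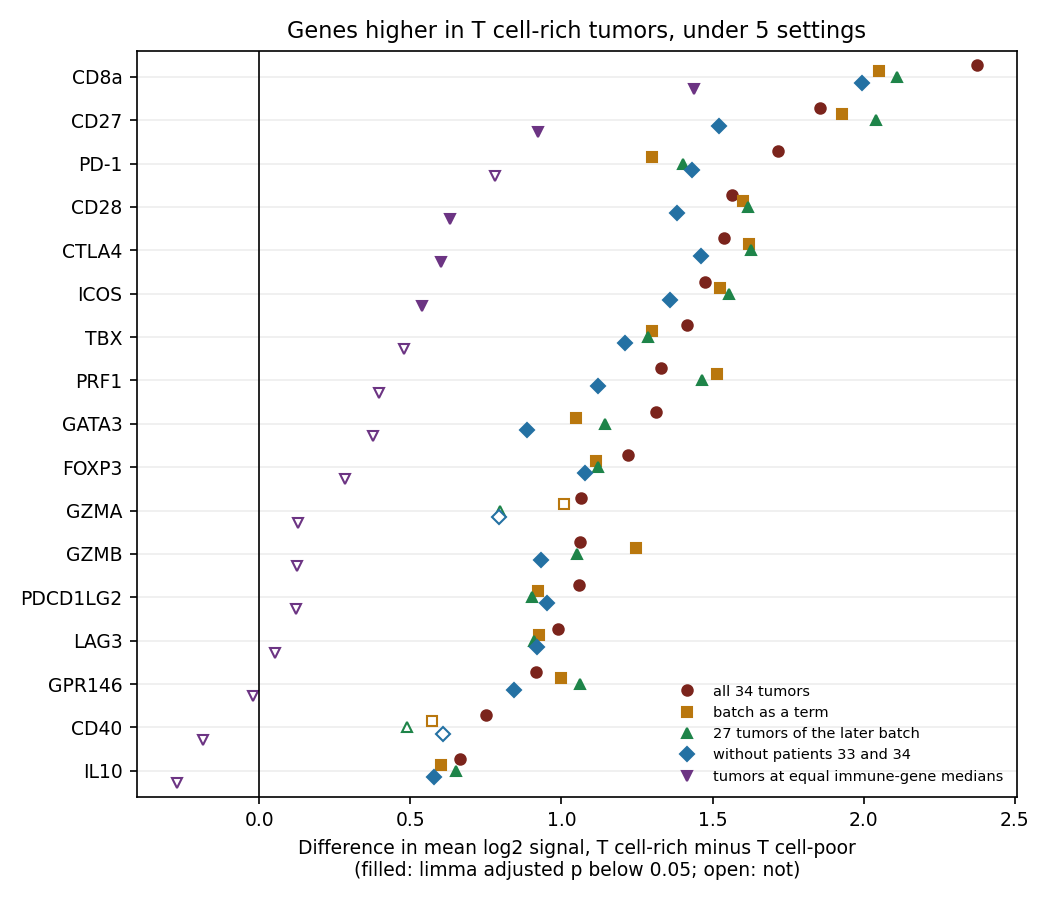
Difference in mean log2 signal for 17 of the 19 called genes with all tumors, with batch as a term, in the later batch, without patients 33 and 34, and with tumors at equal immune-gene medians. CD8a, CD27, CD28, CTLA4 and ICOS are filled, meaning adjusted p under 0.05, in all 5, and the equal-median values of CD40, IL10 and GPR146 lie below 0.

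With batch as a term, 16 of the 19 genes were still called among 17 (39.5%), and 16 of the 19 in the 27 tumors of the later batch (37.2%). Without patients 33 and 34, 16 of the 19 genes were called (37.2%), and CD40 and GZMA were among those lost in each of the 3 settings. With batch as a term and without these tumors, 15 genes were called, 14 of them among the 19. CD8a differed by 2.05 with batch as a term and by 1.99 without patients 33 and 34. CTLA4 differed by 1.62 and 1.46 in the same settings. Both patients lay above every other tumor in 13 of 43 genes, including CD8a, CD27, CD28, ICOS, PRF1, GZMA and GATA3.

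Single tumors went against the general order. The T cell-poor tumor of patient 19, with CD3e of 9.88 and 88279 total counts, was the highest of its group in 9 genes, including PD-1 (9.70), FOXP3 (9.74), CTLA4 (8.47) and IL10 (9.55). In CTLA4 it was still below 16 of the 17 T cell-rich tumors. Its CD8a was 8.63, and its CD8a minus FOXP3 of -1.11 was the lowest of the T cell-poor tumors. The T cell-poor tumor of patient 20 was the highest of its group in 8 genes, including LAG3 (9.61), GZMB (9.99) and PD-L1 (9.58). In the other direction, the T cell-rich tumor of patient 12, with CD3e of 10.72, was the lowest of its group in 9 genes, including CD8a (8.08), CD27 (7.38), TBX (6.09), PRF1 (5.83), GZMA (5.86) and LAG3 (8.33). The T cell-rich tumor of patient 21 was also the lowest of its group in 9 genes, with the lowest total of all tumors, 27092 counts. Among the 17 tumors with the most CD27 and among the 17 with the most CTLA4, 16 were T cell-rich, against a median of 11 over the 43 genes.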

How the data were processed

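The authors hybridized RNA from 34 canine OSCC tumors and 2 mucosa samples to a custom NanoString nCounter panel of 44 immune and 4 housekeeping genes with 6 positive and 6 negative controls. The deposited gene values are signal, counts scaled by the authors to the housekeeping genes, whose geometric mean was 8978.08 to 8978.09 in every sample, while the control rows are raw counts. Of 1728 gene values, 99.9% equalled a whole count multiplied by 1 factor for each sample (tolerance 0.0102), from which total counts were computed. No column lacked a sample. The number of tumors and the counting error of low totals limit the precision. Tumors that share a dog are not independent, and the p-values did not account for this.

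Values were log2-transformed with no pseudocount and compared between the upper and lower 17 tumors by CD3e with limma 3.58.1 in R 4.3.3 without covariates, with Benjamini-Hochberg adjustment over 43 genes at 0.05. CD3e was not tested. Scores and technical measures were compared by permutation tests with 100000 resamples in Python 3.11.15 and scipy 1.17.1, and batch by Fisher's exact test. Batches were set by each sample's value of the second positive control divided by that of the third, with a split at 2.0. Background was the mean plus 2 SD of a sample's negative controls. The fit was tested on simulated data with known changes. The groups, the gene lists by role and the tests were chosen with earlier results of these data known. The 10 genes with the highest differences and the highest of each list were to be given in full, the others by values or counts. Of the genes tested, 2 are counted but not reported individually here, and no probe sequences were used. Alternatives covered the test, scaling, batch, group boundary, pseudocount, low values, background, depth and single tumors, and those that leave out or average patients 33 and 34 together were chosen after seeing the data.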

Additional observations from a re-analysis of the deposited data

How the results depend on the processing

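The count of 19 called genes was between 15 and 28 under the alternatives, other than the scaling to equal medians and the first batch alone, and between 18 and 22 with each tumor left out in turn. With equal medians it was 11, with the groups then redrawn from the rescaled CD3e it was 9 (5 higher, 4 lower), and in the first batch, with 1 T cell-rich tumor assumed to vary like the others, limma called 0 genes (4 with an unadjusted p under 0.05). With the groups redrawn in this way, CTLA4 was no longer called (0.48, limma adjusted p = 0.0808), and TBX was among the 5 higher genes (0.68, limma adjusted p = 0.00335). The median difference of 0.71 became -0.22 and -0.17 under the 2 equal-median scalings and was 0.64 to 0.76 with a tumor left out. Under these scalings the called genes CD40 (-0.19, but 0.30 with the groups redrawn), IL10 (-0.27 and -0.33), GPR146 (-0.020 and -0.12) and a called gene not named here (-0.084 and -0.40) changed sign, as did IFNγ (-0.63 and -0.73), IL2 (-0.76 and -0.96) and CLEC4C (-0.85 and -0.78), which the alternative called lower. Of 2535 values of single genes under an alternative, 2314 kept direction and side of the threshold, 61 lost a call, 52 gained a call, 13 reversed with a call and 95 changed sign with no call in either setting. GZMA alone lost its call with a tumor left out, that of patient 14 or of patient 34 (limma adjusted p = 0.0504 for each). The cytolytic score difference was 0.26 with equal medians and 1.08 to 1.34 with a tumor left out. CD8a minus FOXP3 was 0.99 in the later batch, 0.92 without patients 33 and 34 and 1.00 to 1.31 with a tumor left out, and the cytolytic genes minus CD8a were -1.39 to -1.11. With a tumor left out, inhibitory minus costimulatory receptors were -0.31 to -0.13 and TBX minus GATA3 was 0.0019 to 0.21. The former was -0.42 in the later batch (permutation adjusted p = 0.0959), and the latter was 0.32 without patients 33 and 34 and reversed to -0.0055 with values raised to the background. The cause was not tested in these cases, except that the scalings remove the 0.94 shift by construction and the first batch holds few tumors. A count-based test of recovered counts was not run, because the criterion set for it needs more low values in each sample than this panel holds. The difference of the effect between batches was not fitted, since it was set to need at least 2 tumors of each group in each batch and the first batch held 1 T cell-rich tumor. No paired analysis was possible because the labels number patients and the T cell-rich and T cell-poor tumors share no number. Low totals limit genes near background most, such as PAX5 and NCR1.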
